A study of Mus musculus with 24 samples.

Results

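The untreated time-separated pairs were tumor 1 and tumor 2 of mice 4, 17 and 19, which made up 6 of the 24 tumors and 3 of the 12 mice of the series. They were chosen by their labels, a title that reads Time separated and a treatment of None, and each tumor was profiled in 1 TCRβ and 1 TCRα library. All mice were female BALB/c mice of 7 to 9 weeks with a tumor in each flank, grown from CT26, a mouse colon carcinoma line whose genotype is labelled CT26.CL25. In the time-separated mice 1 tumor was removed by surgery on day 9 and the other was harvested on day 20, 11 days later. The same mice served as the vehicle group of the series. In the time-matched mice 6, 12 and 14, used here for comparison, both tumors were harvested on day 13 without treatment. A further 6 time-separated mice received decitabine, a DNA methyltransferase inhibitor, at a low dose of 0.5 mg/kg or a high dose, 2 mg/kg. Tumors are numbered within a mouse in the labels, which do not say which was removed first, so tumor 1 and tumor 2 are used here as names, and whether the numbers follow the order of removal is not known. Surgery and the interval between the harvests cannot be told apart in this design.

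A T cell receptor is a pair of chains, most often an α and a β chain, and each chain is assembled during T cell development by joining V and J gene segments, with a D segment between them in the β chain. Bases are trimmed and added at random at the joints, and the stretch that spans the joint, the CDR3, makes most of the contact with the antigenic peptide. A T cell passes its receptor to its daughters, so a CDR3 found with the same V and J segment in different samples of an animal serves as a label of a clone. In tumors such labels are used to follow which clones are present and how abundant they are.

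A clonotype was defined here as a CDR3 amino acid sequence with its V and J segment, supported by at least 2 counts in a library and free of a stop codon. A clonotype found in both tumors of a mouse is called kept, and one found in a single tumor is called tumor-only. The RNA came from whole tumors, so a higher share of counts from more cells of a clone and from more receptor RNA per cell cannot be told apart. The 6 TCRβ libraries held between 97815 and 207072 retained counts and between 1889 and 3073 clonotypes, and the 6 TCRα libraries between 73240 and 183066 counts and between 976 and 2354 clonotypes. The time-matched libraries were deeper, with at least 375898 counts for TCRβ and 176171 for TCRα, and tests between groups were therefore run at a common depth of 63291 TCRβ or 26623 TCRα counts. Confidence intervals of single shares are 95% Clopper-Pearson intervals, while the limit given for a share of 0 is that of 3 counts in the library, and both cover counting error only.

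The clonotypes on which the results turned are shown first by their most frequent CDR3 nucleotide sequence. Capitals mark the bases at the joint, those that follow the most common start of the CDR3s of that V segment and precede the most common end of the CDR3s of that J segment. The first set was kept at a high share in both tumors.
TRBV13-3 with TRBJ2-5, mouse 4: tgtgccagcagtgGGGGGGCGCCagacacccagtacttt
TRBV17 with TRBJ2-7, mouse 17: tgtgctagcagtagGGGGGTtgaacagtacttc
TRBV13-2 with TRBJ2-7, mouse 19: tgtgccagcggtgaTTTtgaacagtacttc
TRBV17 with TRBJ2-7, mouse 19: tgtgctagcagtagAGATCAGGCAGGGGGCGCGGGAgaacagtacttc
TRAV12-2 with TRAJ30, mouse 19: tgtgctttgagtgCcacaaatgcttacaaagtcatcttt

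The second set was the largest tumor-only clonotype of tumor 1 in each mouse, with the largest TCRα clonotype of this kind of mouse 19, which natural killer T cells carry as an invariant chain.
TRBV19 with TRBJ2-5, mouse 4: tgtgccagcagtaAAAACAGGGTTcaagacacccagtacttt
TRBV13-1 with TRBJ2-1, mouse 17: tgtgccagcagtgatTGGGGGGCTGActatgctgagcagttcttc
TRBV13-1 with TRBJ2-7, mouse 19: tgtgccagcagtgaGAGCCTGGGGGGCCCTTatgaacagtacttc
TRAV11 with TRAJ18, mouse 19: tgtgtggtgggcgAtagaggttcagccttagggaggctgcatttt

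The third set was the largest tumor-only clonotype of tumor 2 in each mouse, with the largest TCRα clonotypes of this kind of mice 17 and 19.
TRBV3 with TRBJ2-7, mouse 4: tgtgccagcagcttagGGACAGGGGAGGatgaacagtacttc
TRBV19 with TRBJ2-1, mouse 17: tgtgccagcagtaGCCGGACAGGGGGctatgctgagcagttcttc
TRBV13-1 with TRBJ2-3, mouse 19: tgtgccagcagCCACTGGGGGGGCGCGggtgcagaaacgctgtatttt
TRAV21/DV12 with TRAJ57, mouse 17: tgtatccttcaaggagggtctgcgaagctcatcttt
TRAV15D-1/DV6D-1 with TRAJ21, mouse 19: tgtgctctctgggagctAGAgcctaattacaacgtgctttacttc

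The β chains carried between 3 and 22 joint bases in these sequences. The α chain of the natural killer T cell clonotype carried 1 joint base, and that of TRAV21/DV12 with TRAJ57 carried 0, so that its CDR3 read straight from the common V start to the common J end.

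Few clonotypes were shared between the tumors of a mouse, but those shared held most of the counts in 5 of the 6 TCRβ libraries. Mouse 4 had 688 kept TCRβ clonotypes beside 1743 only in tumor 1 and 2385 only in tumor 2. In mouse 17 the numbers were 914 kept, 1953 only in tumor 1 and 1178 only in tumor 2. Mouse 19 had the fewest, 394 kept clonotypes, with 2109 only in tumor 1 and 1495 only in tumor 2. Kept clonotypes were thus 14.3%, 22.6% and 9.85% of all TCRβ clonotypes of these mice, below the 27.0% to 28.7% of the 3 time-matched mice, whose libraries were deeper. At common depth they were 13.6%, 21.2% and 9.93%, against 22.1% to 23.1% in the time-matched mice, so that mouse 17 lay just below that range. The TCRα shares at common depth were 12.4%, 20.2% and 5.65%, against 22.5% to 24.3%.

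The kept TCRβ clonotypes held 79.2% of the counts of tumor 1 and 67.1% of tumor 2 in mouse 4. In mouse 17 they held 85.7% and 94.1%. In mouse 19 they held 39.0% of tumor 1 but 87.4% of tumor 2, the widest gap between the tumors of a mouse. On the TCRα chain the kept clonotypes numbered 464, 704 and 183 in mice 4, 17 and 19. In tumor 1 they held 72.2%, 76.0% and 26.1% of the counts of these mice, and in tumor 2 the figures were 64.8%, 91.5% and 64.6%. Mouse 19 thus had the lowest kept share in tumor 1 on both chains.

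Most large clonotypes were kept, and the kept share fell with the share of counts that a clonotype held. Of 93 TCRβ clonotypes of 1% or more, summed over the 6 tumors, 87 were found in the paired tumor. Mouse 17 kept 15 of 15 in tumor 1 and 20 of 20 in tumor 2. Mouse 4 kept 16 of 16 in tumor 1 and 14 of 17 in tumor 2, and mouse 19 kept 9 of 10 and 13 of 15. Of the 64 clonotypes of this class in the time-matched tumors, 64 were kept.

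The tumors of the 3 mice lay furthest apart in the class of 0.1% to 1%, where 205 of 353 TCRβ clonotypes were kept. Mouse 17 kept 51 of 53 in tumor 1 and 40 of 45 in tumor 2. Mouse 4 kept 40 of 55 and 32 of 72. Mouse 19 kept 27 of 105 in tumor 1 and 15 of 23 in tumor 2. In the time-matched tumors 162 of 165 were kept, and the lowest kept share of a tumor was 91.7%, which lay above 5 of the 6 time-separated tumors.

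**Figure D1:**
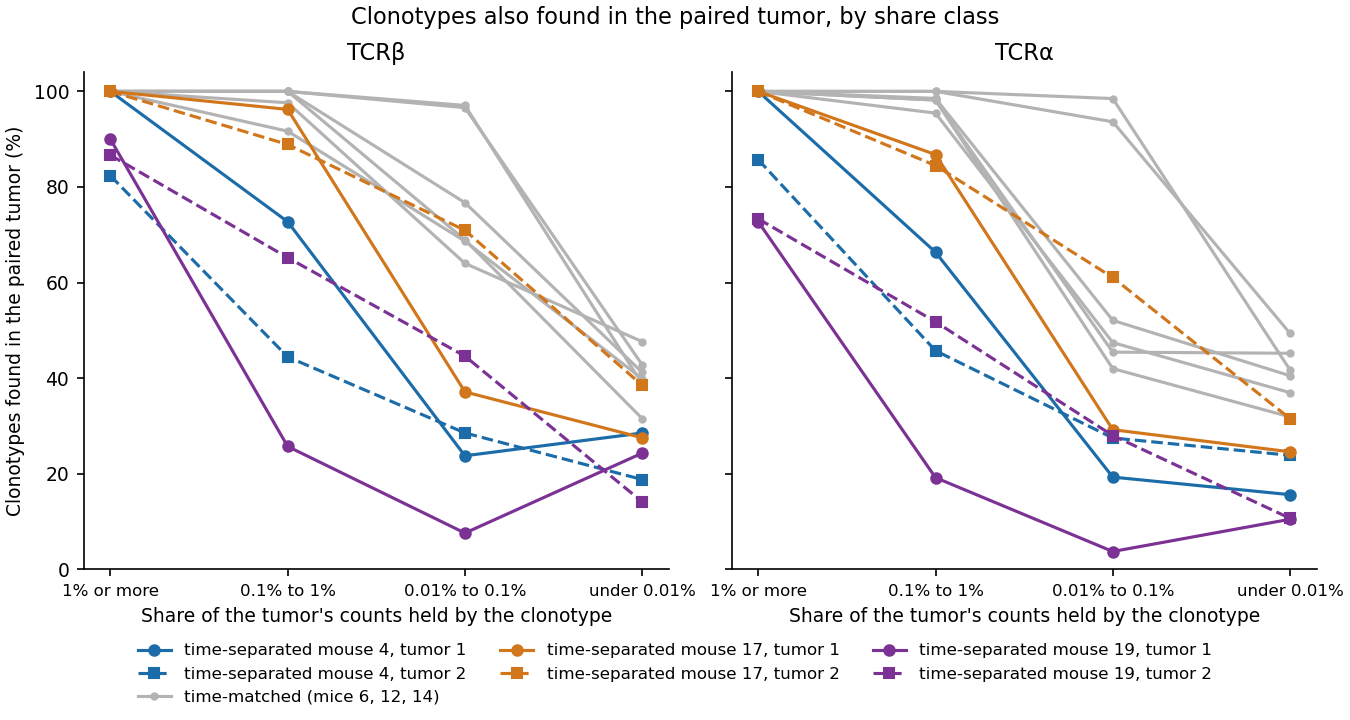
Percentage of the clonotypes of a tumor that were found in the paired tumor of the same mouse (vertical axis), in 4 classes of share of counts (horizontal axis), for TCRβ (left) and TCRα (right). Coloured lines are the 6 time-separated tumors, with circles for tumor 1 and squares for tumor 2, and grey lines the 6 time-matched tumors. The time-separated tumors of mice 4 and 19 sit below every time-matched tumor in the class of 0.1% to 1%, with tumor 1 of mouse 19 lowest at 25.7% (TCRβ) and 19.2% (TCRα).

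Among the TCRα clonotypes, 78 of 87 of 1% or more were kept and 330 of 608 of 0.1% to 1%. Mouse 17 kept 105 of 121 in the second of these classes in tumor 1 and 49 of 58 in tumor 2. Mouse 4 kept 71 of 107 and 43 of 94, and mouse 19 kept 33 of 172 and 29 of 56. In the time-matched tumors 70 of 70 and 396 of 404 were kept.

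Below 0.1% the kept share was lower and its order was uneven. Between 0.01% and 0.1%, 1158 of 4406 TCRβ clonotypes were kept, from 7.59% in tumor 1 of mouse 19 to 70.9% in tumor 2 of mouse 17. Under 0.01%, 2542 of 10003 were kept. In tumor 1 of mouse 19 the smallest clonotypes were kept more often than those of 0.01% to 0.1%, 257 of 1057 against 101 of 1331. The same held in tumor 1 of mouse 4, with 427 of 1497 against 205 of 863.

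Part of these small kept clonotypes resembled large ones. A near-copy is taken here as a clonotype whose main CDR3 nucleotide sequence equals that of a clonotype with at least 50 times its counts in the same library, or differs from it by 1 substitution. Near-copies made up between 57.9% and 72.4% of the kept TCRβ clonotypes under 0.01%, and between 26.7% and 52.5% of the tumor-only ones. In tumor 1 of mouse 19, 61 of 101 kept clonotypes of 0.01% to 0.1% were near-copies, against 4 of 1230 tumor-only ones. With near-copies left out, the kept share of that tumor was 3.16% in this class and 12.7% under 0.01%. In tumor 1 of mouse 4 it was 17.9% and 14.6%. Near-copies were also present in the time-matched tumors, where they made up between 53.7% and 62.9% of the kept TCRβ clonotypes under 0.01%.

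Counted at a common depth, retention was the share of the clonotypes of at least 0.1% that were found in the paired tumor, averaged over the tumors of a mouse. TCRβ retention was 64.2%, 94.5% and 52.3% in mice 4, 17 and 19. In the time-matched mice it was 99.6%, 100% and 96.2%. The groups did not overlap, with means of 70.4% ± 21.8 and 98.6% ± 2.08 (SD, n = 3 mice each), a difference of -28.2 percentage points (two-sided exact permutation test, p = 0.1, and 3 against 3 mice allow none smaller). Mouse 17 lay close to the time-matched mice, and the difference ranged from -40.3 without it to -19.2 without mouse 19. TCRα retention was 59.3%, 85.6% and 38.9% in the same order of mice, against 97.5%, 100% and 97.3%. The TCRα difference was -37.0 percentage points (two-sided exact permutation test, p = 0.1). For clonotypes of at least 1% the difference was smaller, -7.97 points for TCRβ and -11.7 for TCRα (exact permutation test, p = 0.4 for each).

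Retention in the 6 mice that received decitabine lay between 76.5% and 94.1% for TCRβ and between 65.1% and 83.3% for TCRα. These ranges lie within those of the 3 untreated time-separated mice on both chains.

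Many of the large clonotypes differed in share between the tumors of a mouse. Of the 352 TCRβ clonotypes that held at least 0.1% in either tumor, counted in each mouse, 97 differed by less than 4-fold, with 1 count added to each. In mouse 4, 59 of 127 (46.5%) were at least 4-fold higher in tumor 2 and 40 (31.5%) at least 4-fold lower. In mouse 17, 25 of 92 (27.2%) were higher and 19 (20.7%) lower. In mouse 19, 19 of 133 (14.3%) were higher and 93 (69.9%) lower, and 79 of the latter were not found in tumor 2. On the TCRβ chain mice 4 and 19 thus leaned in opposite directions by their tumor labels.

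The TCRα chain gave more large clonotypes, 585, of which 130 differed by less than 4-fold. In mouse 4, 72 of 192 (37.5%) were higher in tumor 2 and 77 (40.1%) lower. In mouse 17, 28 of 164 (17.1%) were higher and 78 (47.6%) lower. In mouse 19, 46 of 229 (20.1%) were higher and 154 (67.2%) lower. More TCRα clonotypes were thus lower than higher in each mouse, so mice 4 and 19 did not lean in opposite directions on this chain. In mouse 19 the 46 clonotypes that were higher held 2.58% of the counts of tumor 1 and 68.3% of tumor 2.

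**Figure D2:**
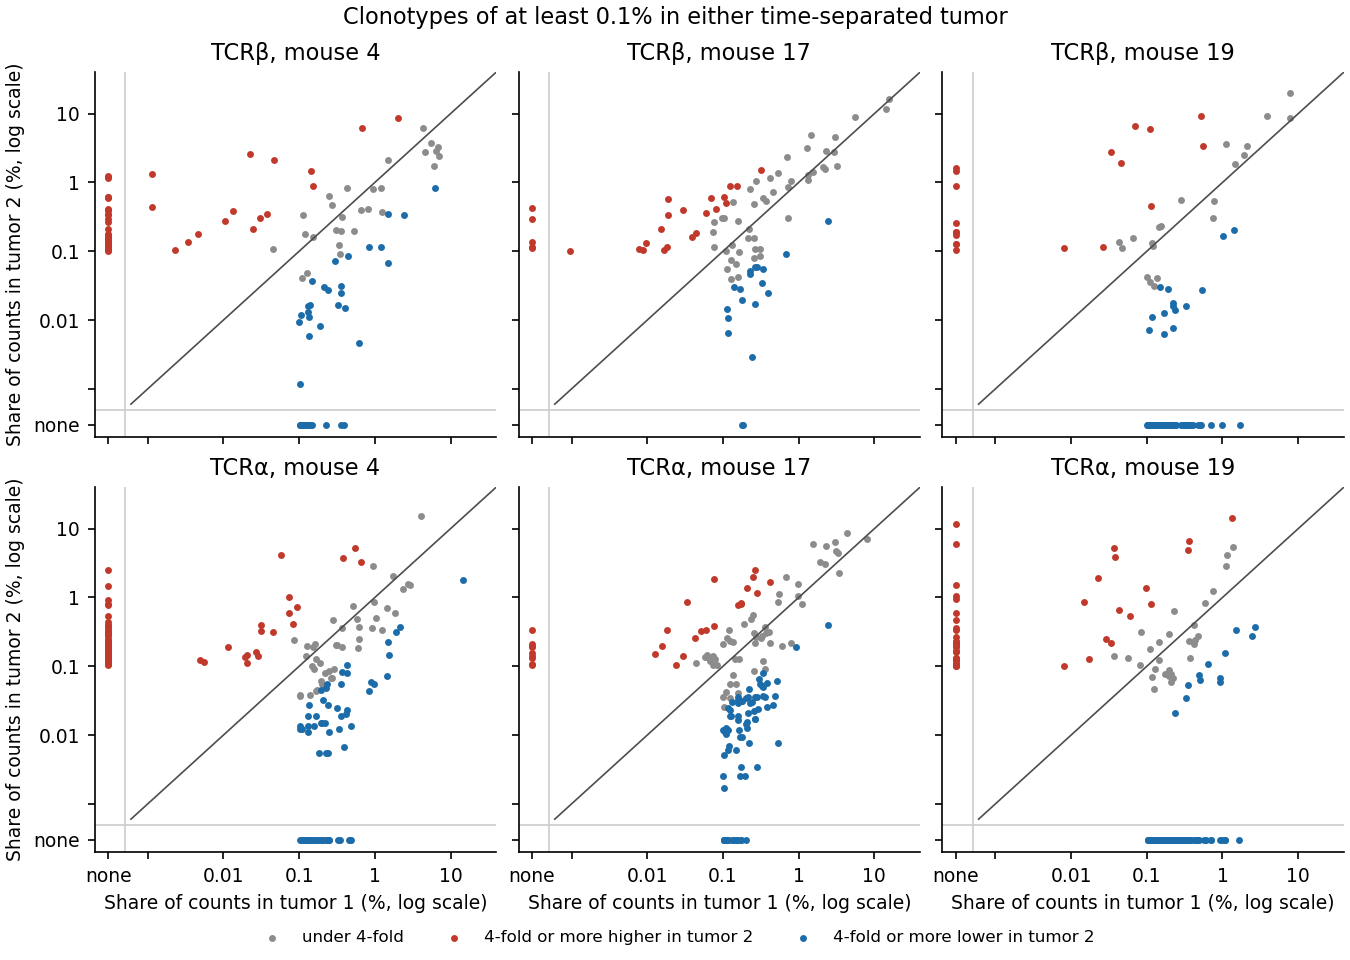
Share of counts in tumor 1 (horizontal) and tumor 2 (vertical) of each clonotype of at least 0.1% in either tumor, on log axes in percent, for TCRβ (top) and TCRα (bottom) of the 3 time-separated mice. Points marked none on an axis had no retained count in that tumor, the diagonal marks equal shares, and colours mark clonotypes at least 4-fold higher (red) or lower (blue) in tumor 2. In mouse 19 most points lie on the lower axis, 79 for TCRβ and 142 for TCRα, whereas mouse 17 has 2 and 16 there.

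At common depth, 77.8%, 47.1% and 84.0% of the large TCRβ clonotypes of mice 4, 17 and 19 differed by 4-fold or more, against 3.56%, 1.43% and 18.4% in the time-matched mice. The means were 69.6% ± 19.7 and 7.79% ± 9.24 (SD, n = 3 mice each, two-sided exact permutation test, p = 0.1), and the groups did not overlap. For TCRα they were 76.0% ± 12.7 and 8.80% ± 6.88 (SD, n = 3 mice each, two-sided exact permutation test, p = 0.1). In the decitabine mice the share lay between 54.3% and 76.7% for TCRβ and between 52.7% and 85.2% for TCRα.

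Most of the leading clonotypes were kept, and the largest TCRβ clonotype of each of the 6 tumors was found in both tumors of its mouse. Of the 10 largest TCRβ clonotypes of each tumor, 7 were the same in mouse 4, 7 in mouse 17 and 5 in mouse 19. In mouse 17 the clonotype TRBV17 with TRBJ2-7 of 11 residues ranked first in both tumors, at 15.4% of counts (interval 15.3% to 15.6%) in tumor 1 and 16.6% (16.4% to 16.7%) in tumor 2. In mouse 19 the clonotype TRBV13-2 with TRBJ2-7 held 7.80% and 8.57%, rank 1 in tumor 1 and rank 4 in tumor 2. The clonotype TRBV17 with TRBJ2-7 of 16 residues held 7.78% of tumor 1 and 19.7% of tumor 2 of mouse 19, where it ranked first. It was found in all 12 mice of the series, and its share in the other mice is not given here. Where TCRβ sequences of 1% or more in mouse 19 were listed in other mice, the median share was 0.00236% and the highest 3.05%. In mouse 4 the lead changed, from TRBV4 with TRBJ2-7 at 7.10% in tumor 1 and 2.45% in tumor 2 to TRBV13-3 with TRBJ2-5 at 2.02% and 8.51%.

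The largest TCRα clonotype of each tumor was likewise kept. In mouse 4 TRAV7-4 with TRAJ49 held 14.7% of tumor 1 and 1.804% of tumor 2, whereas TRAV8-2 with TRAJ48 held 4.04% and 15.1%. In mouse 17 TRAV12-1 with TRAJ30 held 7.93% and 7.12%, and TRAV12-1 with TRAJ9 held 4.35% and 8.75%. In mouse 19 TRAV12-2 with TRAJ30 held 1.35% of tumor 1 and 14.3% of tumor 2, and TRAV3-1 with TRAJ53 held 2.70% and 0.373%. Of the 10 largest TCRα clonotypes, 4, 8 and 4 were the same in both tumors of mice 4, 17 and 19.

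The largest tumor-only clonotypes also had the largest fold changes with 1 count added to each tumor, an order that rests on this added count. In mouse 4 TRBV3 with TRBJ2-7 held 2119 counts or 1.25% of tumor 2 and 0 of 173813 counts in tumor 1, at least 725-fold higher against a floor of 3 counts in the library. TRBV19 with TRBJ2-5 held 0.387% of tumor 1 and 0 of 169451 counts of tumor 2, at least 219-fold lower. In mouse 17 the tumor-only clonotypes were smaller. TRBV13-1 with TRBJ2-1 held 0.184% of tumor 1 and was listed with 1 count in tumor 2, and TRBV19 with TRBJ2-1 held 0.419% of tumor 2. In mouse 19 TRBV13-1 with TRBJ2-7 held 1.70% of tumor 1 and 0 of 205823 counts of tumor 2, at least 1169-fold lower. TRBV13-1 with TRBJ2-3 held 1.62% of tumor 2 of that mouse and no retained count in tumor 1, where it was listed with 1 count, below the minimum.

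The largest tumor-only clonotype on either chain was TRAV15D-1/DV6D-1 with TRAJ21 of mouse 19. It held 10224 counts or 11.7% (11.5% to 11.9%) of tumor 2, the second largest clonotype there, and 0 of 87159 counts in tumor 1, for which the limit of 3 counts is 0.00344%. Its CDR3 was not found in tumor 1 with any V or J segment, and the clonotype was found in no other mouse. In mouse 4 TRAV8-1 with TRAJ44 held 2.55% of tumor 2 and TRAV5-4 with TRAJ40 held 0.491% of tumor 1. In mouse 17 TRAV7-4 with TRAJ40 held 0.199% of tumor 1 and TRAV21/DV12 with TRAJ57 held 0.342% of tumor 2. Each of these 4 was at 0 in the paired tumor. In TRAV8-1 with TRAJ44, 27 of the 39 CDR3 bases counted as joint bases, and none matched the common J end. Whether it encodes a productive chain was not tested. Among kept clonotypes, chosen here after their values were seen, TRBV13-3 with TRBJ2-1 of mouse 19 held 0.0705% of tumor 1 and 6.64% of tumor 2, and TRAV6-6 with TRAJ30 of the same mouse 0.0367% and 5.22%. TRBV14 with TRBJ2-3 of mouse 4 was kept with 2 counts in tumor 1 and held 1.31% of tumor 2, a 760-fold difference with 1 count added. The bound of 725-fold for TRBV3 with TRBJ2-7 therefore does not place that clonotype above it. The 2 counts were 0.00115% of tumor 1. Where TCRβ sequences of 1% or more in mouse 4 were listed in other mice, their median share was 0.001005%. The source of counts this low was not tested.

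The class of 0.01% to 0.1% gave the largest part of the tumor-only counts in 10 of the 12 libraries, the exceptions being tumor 2 of mouse 17 for TCRβ and tumor 2 of mouse 19 for TCRα. In tumor 1 of mouse 19 they made up 61.0% of the TCRβ counts, of which clonotypes of 0.01% to 0.1% gave 40.2 percentage points and those of 0.1% to 1% gave 16.8. In tumor 2 of mouse 4 the same classes gave 16.2 and 8.43 of 32.9 points. In tumor 2 of mouse 19 the TCRα clonotypes of 1% or more gave 20.2 of 35.4 points. Mouse 17 had no tumor-only clonotype of 1% or more on either chain.

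**Figure D3:**
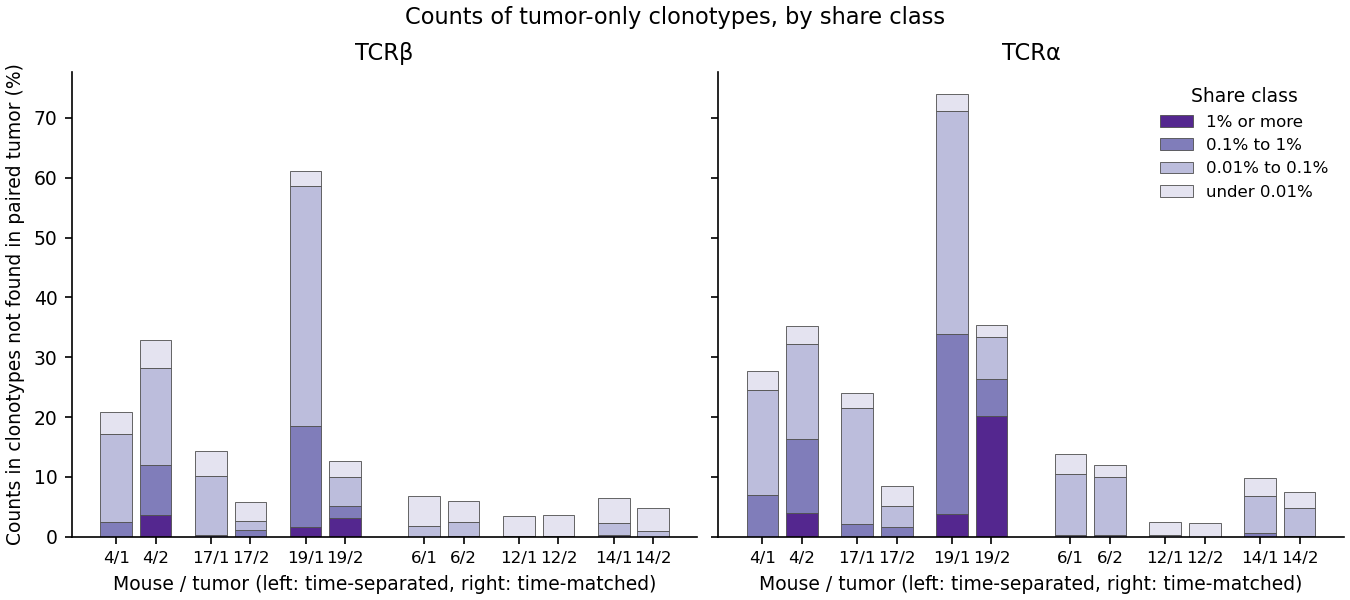
Percentage of the counts of each tumor held by clonotypes not found in the paired tumor (vertical axis, stacked by share class) for the tumors of the time-separated and time-matched mice (horizontal axis, mouse and tumor number), TCRβ left and TCRα right. Tumor 1 of mouse 19 stands highest at 61.0% (TCRβ) and 73.9% (TCRα), and the time-matched tumors lie between 3.44% and 6.89% (TCRβ) and between 2.38% and 13.9% (TCRα).

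Tumor 1 and tumor 2 did not differ in the same direction in the 3 mice. At common depth, tumor-only clonotypes held 21.2%, 15.0% and 61.2% of the TCRβ counts of tumor 1 in mice 4, 17 and 19, and 34.3%, 6.28% and 12.7% of tumor 2. The mean of tumor 2 less tumor 1 was -14.7 ± 31.3 percentage points (SD over the 3 mice, two-sided exact sign-flip test, p = 0.75). The sign turned to 2.22 points without mouse 19. For TCRα the share was 28.3%, 25.9% and 74.0% in tumor 1 and 36.2%, 9.11% and 35.7% in tumor 2. The TCRα difference was -15.7 ± 23.1 points (SD over the 3 mice, two-sided exact sign-flip test, p = 0.5), and it was -4.46 without mouse 19 and -27.5 without mouse 4. With 3 pairs this test cannot give a p below 0.25. In the decitabine mice, which are set beside these with no test, the tumor-only share was higher in tumor 1 in 6 of 6 mice on both chains, at 5.76% to 32.1% against 3.63% to 16.8% for TCRβ and 16.0% to 41.5% against 6.44% to 15.4% for TCRα.

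V and J segment usage also differed between the tumors of a mouse. The distance between the TCRβ V usage of paired tumors, the share of counts that would have to move between segments, was 24.4%, 12.3% and 39.6% in mice 4, 17 and 19. In the time-matched mice it was 3.54%, 5.86% and 7.76%. The TCRα V distances were 42.6%, 28.4% and 49.8% against 8.99%, 6.51% and 11.5%. The distances between J segments were 27.2%, 8.002% and 24.6% for TCRβ and 31.6%, 19.8% and 52.6% for TCRα. The J distance of mouse 17 for TCRβ lay within the range of the time-matched mice, 1.93% to 8.94%, and every other distance by counts lay above its range. With each clonotype counted once, the V distances were 11.8%, 8.78% and 42.3% for TCRβ, against 4.43% to 7.02% in the time-matched mice, and 23.5%, 14.4% and 39.1% for TCRα, against 6.92% to 11.0%. Those of mouse 4 were thus far smaller than by counts. The TCRβ J distance of mouse 17 was 5.71% by clonotypes, within the time-matched range of 2.92% to 6.77%. With near-copies also left out it was 6.98%, above the highest time-matched value of 5.44%. The TCRα J distance of mouse 17 was then 8.84%, within the time-matched range of 7.57% to 9.39%. Its V distances were then 7.84% (TCRβ) and 13.34% (TCRα), just above the highest time-matched values, 7.45% and 13.28%.

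No segment was called when the number of clonotypes per segment was compared between tumor 2 and tumor 1 with mouse as a block. By edgeR's quasi-likelihood test with Benjamini-Hochberg adjustment at 0.05, 0 of 18 TRBV (0%) and 0 of 41 TCRα V segments (0%), TRDV1 included, were called. For J segments, 0 of 12 TRBJ (0%) and 0 of 39 TRAJ segments (0%) were called. An unadjusted p under 0.05 was found for 1, 2, 1 and 1 segments. DESeq2 called 0 in each set, with 0, 1, 0 and 1 segments at an unadjusted p under 0.05.

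The TRBV segment with the smallest p was TRBV20. After thinning it was used by 82, 96 and 164 clonotypes of tumor 1 in mice 4, 17 and 19, and by 94, 34 and 12 of tumor 2. Its share of clonotypes, with all counts used, was 3.87%, 3.77% and 6.87% in tumor 1 and 3.58%, 1.82% and 0.741% in tumor 2, lower in 3 of 3 mice, but with near-copies left out it was 3.82% and 3.95% in mouse 4, and its log2 ratio was -0.96 ± 0.36 (SE, edgeR, adjusted p = 0.216). TRBV14 and TRBV4 followed, with log2 ratios of 0.64 ± 0.33 and 0.91 ± 0.58 (SE, edgeR, adjusted p = 0.557 and 0.633).

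The TRBV segments with most clonotypes were TRBV13-1, TRBV17 and TRBV13-2. TRBV13-1 held 30.4%, 31.0% and 10.0% of the counts of tumor 1 in mice 4, 17 and 19, and 16.3%, 32.7% and 12.3% of tumor 2. TRBV17 held 7.85%, 25.1% and 21.1% of tumor 1 and 8.21%, 28.7% and 42.8% of tumor 2. TRBV13-2 was higher in tumor 2 in 3 of 3 mice, at 14.1%, 7.13% and 20.7% against 7.09%, 6.07% and 14.4% in tumor 1. In mouse 19 the share of clonotypes that used TRBV17 was 11.3% in tumor 1 and 32.3% in tumor 2, or 5.99% and 28.2% with near-copies left out.

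**Figure D4:**
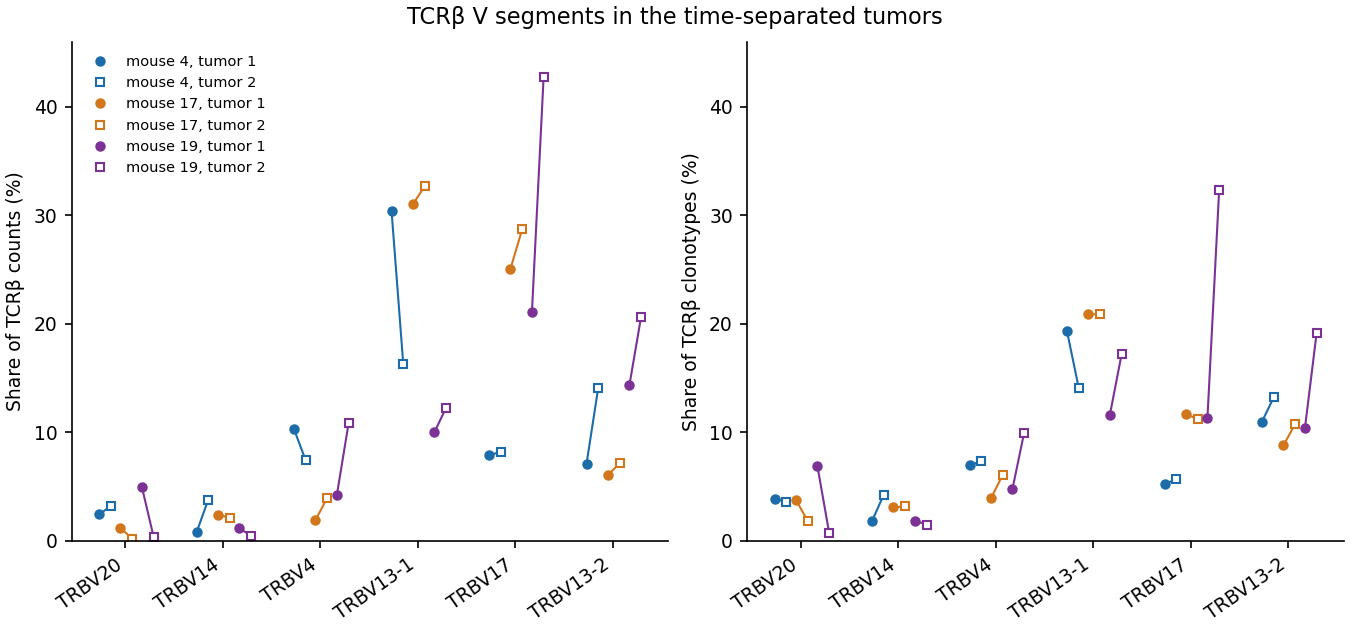
Share of TCRβ counts (left) and of TCRβ clonotypes (right), in percent, that used each of 6 V segments, the 3 with the smallest p and the 3 with most clonotypes, in tumor 1 (filled circles) and tumor 2 (open squares) of each time-separated mouse, with a line between the tumors of a mouse. TRBV17 of mouse 19 shows the widest gap, from 21.1% to 42.8% of counts and from 11.3% to 32.3% of clonotypes.

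Among the α segments, TRAV9-4 had the smallest p. It was used by 7, 2 and 1 clonotypes of tumor 1 and by 24, 13 and 0 of tumor 2 in mice 4, 17 and 19, with a log2 ratio of 2.12 ± 0.52 (SE, edgeR, adjusted p = 0.0885). TRAV9-4 and TRAV9D-4 are near-identical copies of a duplicated part of the locus, as are many pairs of TRAV segments with and without a D, so their counts are uncertain. TRAV12-3 and TRAV3-3 followed, both with an adjusted p of 0.581 (edgeR). TRAV3-3 was also among the 3 TRAV segments with most clonotypes, beside TRAV7-4 and TRAV12-1. TRAV7-4 held 23.8%, 6.91% and 8.53% of the TCRα counts of tumor 1 in the same mice and 4.67%, 5.84% and 1.60% of tumor 2.

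The J segment with the smallest p was TRBJ2-1 among β chains, with a log2 ratio of 0.54 ± 0.22 (SE, edgeR, adjusted p = 0.2498), and TRAJ11 among α chains, with -1.21 ± 0.54 (SE, edgeR, adjusted p = 0.985). TRBJ2-1 held a larger share of clonotypes in tumor 2 in 3 of 3 mice, 15.3%, 14.2% and 20.6% against 11.0%, 11.8% and 11.8% in tumor 1. TRAJ11 held a smaller one in 3 of 3 mice, 0.820%, 0.528% and 0.307% against 2.89%, 1.33% and 1.27%. TRBJ2-7 was the most used TRBJ segment and held between 21.5% and 23.9% of clonotypes in the 6 tumors. TRAJ30 held 5.06% of the TCRα clonotypes of tumor 1 of mouse 19 and 26.9% of tumor 2, and 3.35% and 19.8% with near-copies left out.

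Kept and tumor-only clonotypes were then compared in their segments, with each clonotype counted once and near-copies left out, a filter defined after seeing the data. TRBV17 was the TRBV segment that made up more of the kept than of the tumor-only clonotypes in 3 of 3 mice, 1 of 17 (5.88%). It was used by 6.43% of the kept clonotypes, 3.68% of those only in tumor 1 and 5.74% of those only in tumor 2 in mouse 4. In mouse 17 the shares were 8.20%, 6.98% and 5.33%. In mouse 19 they were 31.8%, 3.85% and 27.7%. TRBV20, TRBV29, TRBV31 and TRBV5 made up less of the kept clonotypes in 3 of 3 mice, 4 of 17 (23.5%). TRBV20 was used by 2.89%, 2.34% and 2.27% of the kept clonotypes of mice 4, 17 and 19. With all clonotypes used, 1 of 17 TRBV segments (5.88%), again TRBV17, made up more of the kept clonotypes in 3 of 3 mice, and 9 of 17 (52.9%) made up less. The 9 were TRBV1, TRBV13-3, TRBV16, TRBV19, TRBV2, TRBV29, TRBV30, TRBV31 and TRBV5, without TRBV20, which was higher among the kept clonotypes in 1 mouse.

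Of the 12 TRBJ segments, TRBJ2-7 alone made up more of the kept clonotypes in 3 of 3 mice (8.33%), and TRBJ1-3, TRBJ1-5 and TRBJ2-2 made up less (25%). TRBJ2-7 was used by 24.1%, 23.9% and 34.1% of the kept clonotypes of mice 4, 17 and 19, which was 4.48, 6.56 and 14.1 percentage points above the tumor-only clonotypes. With all clonotypes used, 1 of 12 TRBJ segments (8.33%), TRBJ2-7, made up more and 2 (16.7%), TRBJ1-3 and TRBJ1-5, made up less, and the mean of TRBJ2-2 turned to 0.80 ± 4.44 points. For TCRα, 7 of 40 V segments (17.5%), TRDV1 among the 7, made up more of the kept clonotypes in 3 of 3 mice and 9 (22.5%) less. Among TRAJ segments 5 of 39 (12.8%) made up more and 10 (25.6%) less. Most TCRα directions towards the kept clonotypes rested on the filter. With all clonotypes used, 0 of the 7 V and 2 of the 5 TRAJ segments ran the same way in 3 of 3 mice, as did 5 of the 9 and 7 of the 10 that made up less. In all, 1 of 42 TCRα V segments (2.38%), TRAV12-1 at 4.24 ± 1.13 points, then made up more of the kept clonotypes in 3 of 3 mice and 12 (28.6%) made up less. Among TRAJ segments 3 of 40 (7.5%), TRAJ33, TRAJ40 and TRAJ53, made up more and 18 (45%) made up less. The widest mean differences were those of TRAJ40, 4.34 ± 2.54 percentage points, and TRAJ22, 3.11 ± 1.58 (SD, n = 3), against 1.60 ± 0.40 and 3.82 ± 6.88 with all clonotypes used. TRAV1 and TRAJ33, the segments of the invariant chain of mucosal-associated invariant T cells, were 1.66 ± 0.55 and 1.73 ± 0.54 points higher among the kept clonotypes (SD, n = 3). With all clonotypes used, TRAJ33 was 1.798 ± 1.93 points higher, in 3 of 3 mice, whereas TRAV1 was at -0.09 ± 0.76 points and higher in 1 mouse. These values cover every clonotype with either segment. The invariant chain itself was in 0 clonotypes of tumor 2 of mouse 19, so none was kept in that mouse.

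Of all 352 large TCRβ clonotypes, 198 (56.2%) were kept, 103 (29.3%) were at least 4-fold higher in tumor 2 and 152 (43.2%) at least 4-fold lower. Of the 29 TCRβ clonotypes with TRBV17 that held at least 0.1% in either tumor, 26 (89.7%) were kept and 19 differed by less than 4-fold, with 5, 12 and 12 of the 29 from mice 4, 17 and 19. Of the 42 with TRBV5, 16 (38.1%) were kept, 29 (69.0%) were at least 4-fold lower in tumor 2, and 22 came from mouse 19. Of the 46 with TRBV13-1, 29 (63.0%) were kept, and 15 (32.6%) were higher and 16 (34.8%) lower in tumor 2. For TRBV13-2 the numbers were 26 of 39 kept (66.7%), with 18 (46.2%) higher and 9 (23.1%) lower. These are counts over 3 mice of unequal numbers of clonotypes and were given no test.

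The CDR3s of kept and tumor-only clonotypes were compared within the class of 0.01% to 0.1%, since kept clonotypes were larger. Tumor-only TCRα clonotypes had longer CDR3s than kept ones in 3 of 3 mice, by 0.204 ± 0.124 residues (SD over the 3 mice, two-sided exact sign-flip test, p = 0.25). The mean lengths of tumor-only clonotypes lay between 13.5 and 13.8 residues and those of kept ones between 13.4 and 13.5. With near-copies left out, the TCRα differences were 0.0423, 0.0374 and 0.482 residues in mice 4, 17 and 19, most of it in mouse 19, and tumor 2 of mouse 17 ran the other way, with 13.52 residues for tumor-only and 13.59 for kept clonotypes. For TCRβ, tumor-only clonotypes were longer in mice 4 and 17, by 0.617 and 0.541 residues, and shorter in mouse 19, at -0.478, with a mean of 0.227 ± 0.611 (SD over the 3 mice, two-sided exact sign-flip test, p = 0.5). With near-copies left out, the TCRβ difference was above 0 in 3 of 3 mice, at 0.184, 0.0377 and 0.289 residues. Tumor 2 of mouse 17 again ran the other way, with 13.69 residues for tumor-only and 13.74 for kept clonotypes. The difference of mouse 19 thus changed sign with near-copies left out.

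Hydropathy, the mean Kyte-Doolittle value of the CDR3 without its first and last 3 residues, did not differ in a single direction over the mice. The difference, tumor-only minus kept, was -0.0292 ± 0.0866 for TCRβ (SD over the 3 mice, two-sided exact sign-flip test, p = 0.75) and -0.00982 ± 0.0567 for TCRα (SD over the 3 mice, two-sided exact sign-flip test, p = 1).

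Kept clonotypes recurred in other mice more often than tumor-only clonotypes of the same class. A clonotype was taken to recur where it was found in any of the other 9 mice, which were of other groups. Of the kept TCRβ clonotypes of tumor 1, 20.2%, 19.8% and 27.1% recurred in mice 4, 17 and 19, against 7.37%, 8.86% and 8.23% of the tumor-only ones. In tumor 2 the shares were 16.5%, 23.7% and 26.4% of the kept and 8.79%, 21.7% and 8.33% of the tumor-only clonotypes. The kept share was thus higher in 6 of 6 tumors, and the gap was narrowest in tumor 2 of mouse 17. The mean difference, tumor-only minus kept, was -11.7 ± 6.12 percentage points (SD over the 3 mice, two-sided exact sign-flip test, p = 0.25). With near-copies left out it was -2.68 points in mouse 17, and tumor 2 of that mouse ran the other way, with 18.9% of the kept and 21.5% of the tumor-only clonotypes.

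For TCRα, whose chains are shared between animals more often, the kept clonotypes recurred in 27.1%, 34.2% and 34.4% of cases in tumor 1 and 29.2%, 38.2% and 42.8% in tumor 2. The tumor-only ones recurred in 18.9%, 21.0% and 19.2% and in 15.4%, 22.2% and 15.8%. The difference was -15.6 ± 5.15 points (SD over the 3 mice, two-sided exact sign-flip test, p = 0.25) and was below 0 in 3 of 3 mice. With all counts used, kept clonotypes were on average larger within the class in every library but that of TCRβ of tumor 1 of mouse 19, for example 0.0307% against 0.0193% of counts for TCRβ of tumor 1 of mouse 17, and the part of their size in recurrence was not tested.

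**Figure D5:**
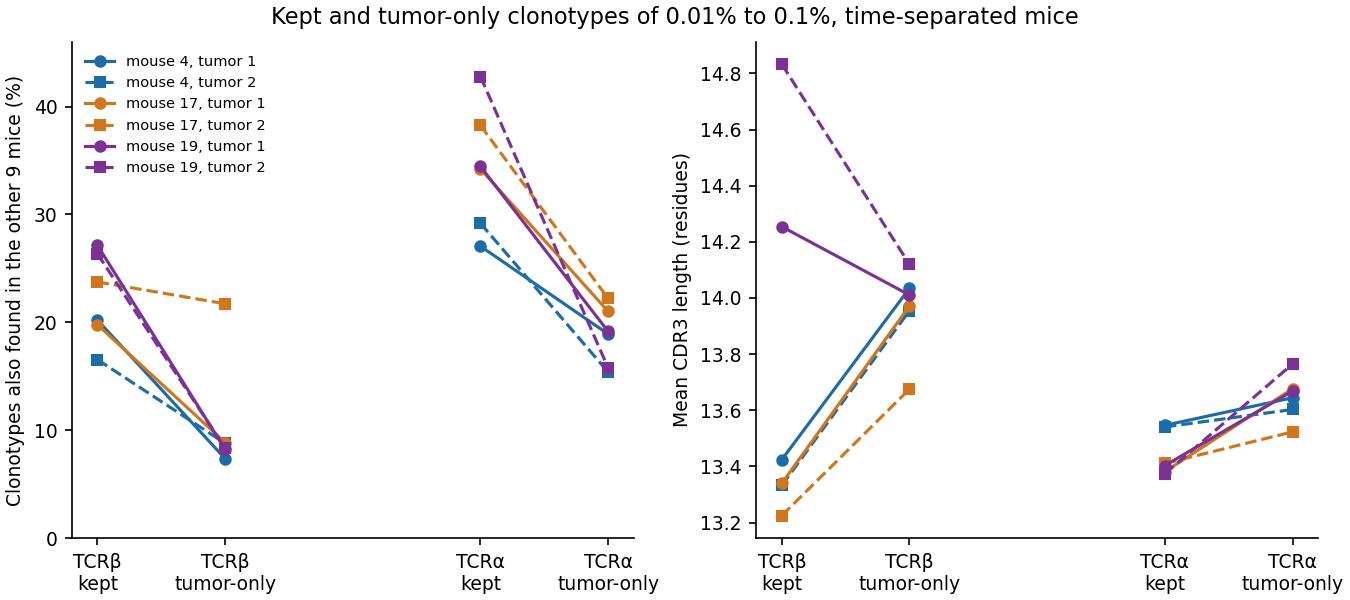
Share of clonotypes also found in the other 9 mice, in percent (left), and mean CDR3 length in residues (right, axis not from 0), of kept and tumor-only clonotypes of 0.01% to 0.1% in each time-separated tumor at common depth. Lines join the kept and tumor-only clonotypes of a tumor, with circles for tumor 1 and squares for tumor 2. Every recurrence line falls from kept to tumor-only, and the TCRβ length lines of mouse 19 run against those of mice 4 and 17.

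The nucleotide sequences of the large clonotypes gave a measure of how often the same sequence was listed in libraries of other mice. Of 23 TCRβ sequences of 1% or more in mouse 4, 21 were found in both of its tumors. Over the 22 libraries of the other mice, 13.0% of the 506 pairs of sequence and library held the sequence, at a median share of 0.001005%, against a median share of 0.833% in the paired tumor. In mouse 17 these values were 8.66%, 0.00383% and 1.36%, and in mouse 19 they were 19.0%, 0.00236% and 0.835%. The highest share in another mouse was 3.05%, 6.95% and 3.05% for mice 4, 17 and 19, so some of these sequences were also large elsewhere. For TCRα between 5.84% and 8.06% of pairs held the sequence, at median shares of 0.160%, 0.223% and 0.00911% and highest shares of 6.90%, 9.96% and 21.8% for mice 4, 17 and 19. The TCRα medians were thus above those of TCRβ in 3 of 3 mice, whereas the share of pairs that held the sequence was below that of TCRβ in 3 of 3. The source of these sequences in other mice, and their part in the recurrence given above, was not tested.

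The invariant α chains of innate-like T cells were counted by their segments and CDR3 length. The natural killer T cell chain, TRAV11 with TRAJ18 and 15 residues, which recognises lipids on CD1d, held 0.383% of the TCRα counts of tumor 1 and 0.2499% of tumor 2 in mouse 4. In mouse 17 it held 0.338% (0.308% to 0.369%) and 0.298% (0.268% to 0.331%), with intervals that overlap. In mouse 19 it held 1591 counts or 1.83% (1.74% to 1.92%) of tumor 1, in 17 clonotypes, and 0 of 87179 counts of tumor 2, for which the limit of 3 counts is 0.00344%. The share was thus lower in tumor 2 in 3 of 3 mice, though the intervals of mouse 17 overlapped. Paired time-matched tumors differed as well, with 0.702%, 0.103% and 0.363% in tumor 1 of mice 6, 12 and 14 against 0.531%, 0.0749% and 0.684% in tumor 2.

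The largest clonotype of this kind in mouse 19 held 1.67% of tumor 1, the largest tumor-only TCRα clonotype of that tumor, and was found in all 12 mice. The nucleotide sequence printed above made up 46.1% of its counts, the rest coming from other sequences for the same residues. The chain of mucosal-associated invariant T cells, TRAV1 with TRAJ33 and 12 residues, which recognises riboflavin metabolites on MR1, followed the same order. It held 0.0519%, 0.164% and 0.330% of tumor 1 in mice 4, 17 and 19, against 0.0123%, 0.0224% and 0 of 87179 counts in tumor 2. Paired time-matched tumors also differed, with 0.00754% and 0.0687% in mouse 6, 0.00315% and 0 of 846655 counts in mouse 12, and 0.0263% and 0.0249% in mouse 14, so that a gap of this kind was not limited to the time-separated mice. As clonotypes that recur in many mice by the same segments, these chains need not mark a single clone when they are found in both tumors.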

How the data were processed

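TCRα and TCRβ libraries were made from total RNA of whole tumors and sequenced. The authors called clonotypes with the Cogent NGS Immune Profiler and deposited 1 table per tumor and chain with a count per sequence. The counts were neither normalized nor filtered, and the methods call the retained counts reads. The methods also name an analysis based on molecular identifiers, and how it entered these read counts is not given in the sources used here.

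Sequences with an entry in the stop codon column or fewer than 2 counts were left out. Counts were drawn without replacement from each library, 63291 for TCRβ or 26623 for TCRα, the smallest total of the 24 tumors, in 20 draws with seed 20, whose values were averaged. Descriptions of single clonotypes and classes used all retained counts. Groups and mice were taken from the sample labels. Groups of mice were compared with exact permutation tests over 1 value per mouse, paired tumors with exact sign-flip tests, and numbers of clonotypes per segment with edgeR 4.0.16 and, as an alternative, DESeq2 1.42.0 (R 4.3.3), with mouse as a block. Nothing says that libraries were repeated, so p-values measure the spread between mice. The tumors of a mouse are paired by the animal. As a check, a median of 76.3% of the TCRβ clonotypes of at least 0.1% was found in the paired tumor. In tumors of the other time-separated mice the median was 12.0%. The lowest paired value, that of tumor 1 of mouse 19, was 31.3%, close to the highest between mice, 26.3%. For TCRα these were 22.4%, in the same tumor, and 20.5%. The scripts were tested on simulated data.

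Clonotypes named were, per mouse and chain, the largest of each tumor, the largest tumor-only ones and those with the largest fold change from at least 0.1%. Segments named were those called or, where none was, the 3 with the smallest p and the 3 with most clonotypes. Segments that differed in 3 of 3 mice and the segments of large clonotypes were named after their values were seen. The members and lists were chosen with earlier results of these data known, and near-copies were defined after seeing the data. Other steps were run in Python 3.11.15 with pandas 2.3.3, numpy 2.4.6 and scipy 1.17.1, and figures drawn with matplotlib 3.10.9.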

Additional observations from a re-analysis of the deposited data

Results flagged for a closer look

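Sequences with a stop codon entry, which were left out of every comparison, made up 9.65% of the TCRβ counts of tumor 2 of mouse 4, above the highest of the 6 time-matched TCRβ libraries, 8.52%. The other 5 time-separated TCRβ libraries and the 6 TCRα libraries did not exceed the time-matched libraries of their chain. With 3 tumors per group and label, no group was large enough for a test of single samples that stand apart.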

How the results depend on the processing

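Over the 16 results, 217 of 228 alternatives kept the direction of the difference or, for segment usage, the count of 0 segments called. The exact permutation and sign-flip tests cannot give a p below 0.1 and 0.25 here. Their side of 0.05 was thus fixed in advance and says nothing about the alternatives. The difference in TCRβ tumor-only share between the tumors ran from -28.6 to 2.22 percentage points when single mice were left out, and turned to 2.22 without mouse 19. The TCRα difference ran from -27.5 to -4.46. TCRβ retention differed by -40.3 to -19.2 points and TCRα retention by -49.2 to -25.8 points when single mice of either group were left out. With at least 10 counts required in the other tumor, retention differed by -33.1 points (TCRβ) and -46.7 points (TCRα). The 4-fold share differed by 54.7 to 73.1 (TCRβ) and 61.3 to 73.9 points (TCRα). The length difference ran from 0.0316 to 0.579 (TCRβ) and 0.142 to 0.266 residues (TCRα), and recurrence from -14.4 to -8.39 and from -17.9 to -12.8 points. Hydropathy ran from -0.0696 to 0.0166 for TCRβ, reversed without mouse 17, and from -0.0287 to 0.0228 for TCRα, reversed without mouse 19. It also reversed for TCRβ with at least 10 counts required in the other tumor (0.0229) and with near-copies left out (0.0684), and for TCRα with a minimum count of 5 (0.000403), with at least 10 counts required (0.0362) and over all classes (0.00566). The cause was not tested.

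Among the segments, 1 TRAV segment was called with the largest clonotypes left out (TRAV9-4) and 1 without mouse 17 (TRAV7-4, lower in tumor 2), so that single mice left out gave 0 to 1 calls. Without mouse 19, 1 TRAJ segment was called (TRAJ9), again a range of 0 to 1. For TRBV and TRBJ segments the range was 0 to 0. Pairing by mouse changed no call. Without the replicate block, 0 segments were called in each set, and the tumor-only share differed by the same -14.7 (TCRβ) and -15.7 points (TCRα). Leaving out near-copies was added after seeing the data. Depth limits what can be called absent: 3 counts were between 0.00145% and 0.00307% of a TCRβ library and between 0.00164% and 0.00410% of a TCRα library.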
